A study of Mus musculus with 10 samples.

Results

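The interferon response and nucleic acid sensing genes were a list of 39 genes, given by symbol and matched by Ensembl identifier to the 54532 genes counted in every library. The members were 7 sensors of foreign or displaced nucleic acid, 3 adaptors, 4 transcription factors, 16 interferon-induced effectors, 5 brakes and ADP-ribosylation factors and 4 genes of antigen presentation and chemotaxis. They were read in RNA of NeuN+ nuclei, sorted by their neuronal nuclear antigen from the brains of adult C57BL/6J mice, to ask whether loss of 2 proteins that silence retroelements was accompanied by an innate response in neurons. *Mphosph8* encodes MPP8, a chromatin reader of the HUSH silencing complex, and *Morc2a* encodes the ATPase MORC2A, which works with HUSH. The *Mphosph8* knockout group (Mphosph8fl/fl Nestin-Cre+) had 3 libraries and the *Morc2a* knockout group (Morc2afl/fl Nestin-Cre+) had 2. The 5 control libraries came from floxed animals without Cre, 3 of the *Mphosph8* line (controls 1 to 3) and 2 of the *Morc2a* line (controls 4 and 5). All 10 libraries thus carried homozygous floxed alleles and only the knockouts carried the Nestin-Cre transgene, which is active in progenitors of neurons and glia, so that Cre and the deletion cannot be told apart. Both knockout groups were compared with the same 5 controls, and the 2 comparisons are therefore not independent of each other.

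Cells detect double-stranded RNA in the cytoplasm with RIG-I (*Ddx58*), MDA5 (*Ifih1*) and LGP2 (*Dhx58*), and DNA with cGAS (*Mb21d1*). The signal passes through MAVS or STING (*Tmem173*) to transcription of type I interferon, which acts through its receptor on a transcription factor complex that includes STAT2 and IRF9. This complex binds the interferon-stimulated response element in the promoters of antiviral genes. Neurons are known to respond to interferon, and transcripts of retroelements are one possible source of RNA and DNA that these sensors bind.

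The response element reads GAAANNGAAA at its core, on either strand. RefSeq promoter windows of 300 bases, from 250 before to 50 after the start of the gene in GRCm38.p6, were matched for 30 of the 39 members, and 15 of these (50%) held the core, against 1079 of the 27025 genes (3.99%) with a window. The 15 were *Ifih1*, *Ddx58*, *Eif2ak2*, *Stat2*, *Ifit1*, *Ifit3*, *Isg15*, *Oas1a*, *Rsad2*, *Bst2*, *Ifitm3*, *Gbp2*, *Gbp3*, *B2m* and *Cxcl10*. A match in these letters describes the window and does not show binding. Stretches around the core are shown for 5 members with different levels in these libraries, with the core in capitals, on the gene's own strand: *Stat2* (chr10:128270256-128270305, plus strand), *Ifit1* (chr19:34640765-34640833, plus strand), *Ifit3* (chr19:34583353-34583436, plus strand), *Isg15* (chr4:156200855-156200916, minus strand) and *B2m* (chr2:122147528-122147577, plus strand).
Stat2: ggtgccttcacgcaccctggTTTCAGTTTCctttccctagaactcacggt
Ifit1: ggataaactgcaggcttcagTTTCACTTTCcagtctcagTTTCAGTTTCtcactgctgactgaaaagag
Ifit3: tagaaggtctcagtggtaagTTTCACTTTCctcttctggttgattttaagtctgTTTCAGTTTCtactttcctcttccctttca
Isg15: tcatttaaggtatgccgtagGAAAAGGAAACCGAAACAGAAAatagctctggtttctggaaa
B2m: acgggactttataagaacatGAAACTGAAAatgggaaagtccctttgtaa
In *Ifit1* and *Ifit3* the core occurred at 2 places, and in *Isg15* 3 overlapping copies formed 1 run. The windows of *Tlr3*, *Mb21d1*, *Mavs*, *Trim25*, *Irf1*, *Irf7*, *Irf9*, *Ifit2*, *Oasl2*, *Ifi44*, *Xaf1*, *Adar*, *Dtx3l*, *H2-K1* and *H2-D1* did not hold these letters.

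Levels are given in CPM, a count scaled to its library's TMM-adjusted size. Libraries held between 6686038 and 10764555 counts in genes. By these totals before TMM adjustment, 1 count was worth 0.0929 to 0.150 CPM. A count of 0 allowed a level of up to 0.279 to 0.449 CPM per library on the same scale (3 counts, counting error only). Libraries of a group are separate samples by their labels, which say no more, so p-values measure the spread between these samples. The neuronal gene *Rbfox3*, which encodes NeuN, lay between 1010 and 3146 counts, and 10 microglial markers summed to 53.3 to 90.2 CPM in controls, 57.6 to 65.3 CPM in *Mphosph8* knockouts and 50.1 to 58.4 CPM in *Morc2a* knockouts. In the *Morc2a* knockouts the summed markers of neurons (4750 to 5302 CPM against 5646 to 6472 CPM in controls) and of oligodendrocytes (554 to 684 CPM against 749 to 977 CPM) lay below every control (two-sided exact permutation p = 0.0476 each, the smallest that 5 against 2 libraries allow; adjusted p = 0.286 over 12 marker tests). The lower neuronal sum lay mostly in *Snap25* (mean 1377 against 1913 CPM), *Syt1* (869 against 1221 CPM) and *Eno2* (703 against 886 CPM). *Map2* (589 against 470 CPM) and *Rbfox3* (265 against 232 CPM) had higher means than in controls. The lower oligodendrocyte sum lay mostly in *Mbp* (341.5 against 510 CPM), while *Mog* was higher (5.96 against 5.13 CPM). *Mphosph8* itself was counted 257, 343, 397, 495 and 280 times in the controls, 359, 372 and 182 times in the *Mphosph8* knockouts and 389 and 367 times in the *Morc2a* knockouts. *Morc2a* was counted 1300, 1423, 1477, 1230 and 945 times in the controls, 1792, 2069 and 1485 times in the *Mphosph8* knockouts and 2020 and 2157 times in the *Morc2a* knockouts. In CPM, both *Morc2a* knockouts lay above all controls for *Morc2a* (214.8 and 222.5 against 121.5 to 162.7 CPM), where 15.4% of all genes did not overlap. These are counts over the whole gene, most of which lies outside the deleted exon, and do not check the labels. The paper states that the mRNA without the exon is subject to decay. It reports loss of each mRNA by qRT-PCR and of each protein by immunoblot in whole brains. The reason for the higher *Morc2a* counts was not tested.

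No member of the list passed the test in either knockout. With edgeR's quasi-likelihood test, an adjusted p under 0.05 and a fold change above 2 were reached by 18 of 18573 genes tested (0.0969%) in the *Mphosph8* knockout and by 11 (0.0592%) in the *Morc2a* knockout, and by 0 of the 33 tested members in both. The smallest adjusted p of a member was 0.81 in the *Mphosph8* knockout and 0.41 in the *Morc2a* knockout. DESeq2 and limma-voom also called 0 members in each comparison. At an unadjusted p under 0.05, edgeR passed 3 members in the *Mphosph8* knockout (*Oasl2* and *Ifit3* higher, *Mx1* lower), where 5.67% of all genes passed, and 2 in the *Morc2a* knockout (*Xaf1* higher, *Ifitm3* lower), where 10.7% passed. Groups did not overlap for 2 members in the *Mphosph8* comparison, where 4.57% of all genes did not overlap, and for 4 in the *Morc2a* comparison, where 15.4% did not.

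The members leaned in opposite directions in the 2 knockouts, with medians near the SD of single control libraries. In the *Mphosph8* knockout 22 of 33 members had a positive log2 fold change, with a median of 0.28, while 48.7% of all genes were positive and their median was -0.01. In the *Morc2a* knockout 10 of 33 were positive, with a median of -0.35, against 48.7% of all genes and a median of -0.01. The same median, taken for each control library as its deviation in log2 CPM from the mean of the controls, had an SD of 0.27 (n = 5). That SD is the spread of single libraries from 2 lines and not the error of a difference between group means. Against the 3 controls of its own line alone, the *Mphosph8* knockout had 21 of 33 members positive. Against the 2 controls of its own line alone, the *Morc2a* knockout median was 0.00, with 16 of 33 positive, and the member at the median was *Bst2*, which had no count in those 4 libraries. Leaving out single libraries took the *Morc2a* median from -0.54 (without *Morc2a* knockout 1) to -0.18 (without control 3) and the *Mphosph8* median from 0.21 to 0.41.

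**Figure D1:**
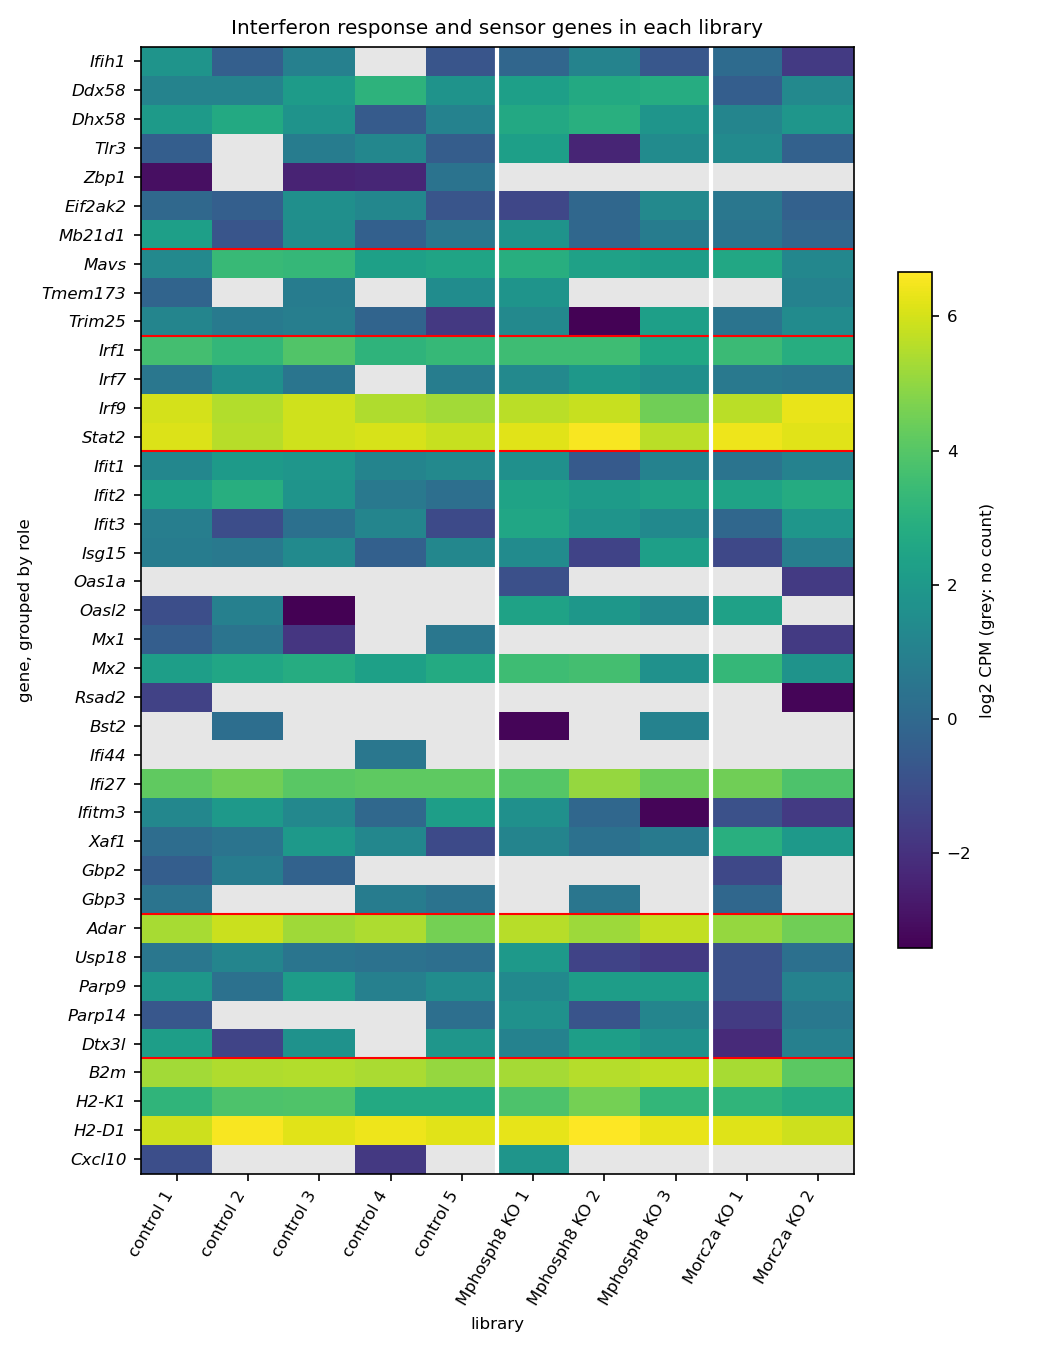
Level of each of the 39 members in each of the 10 libraries, as log2 CPM by colour, with grey where a library had no count; members are ordered by role. 8 members lay at 10 CPM or more on average and 10 lay under 1 CPM, and 16 members had no count in at least 1 library.

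Most of the pathway was present at low level in the sorted nuclei. In controls, markers of astrocytes summed to 845.5 to 1061 CPM and those of oligodendrocytes to 749 to 977 CPM, beside 5646 to 6472 CPM for neurons. The cell type that held a scarce transcript was therefore not resolved. Of the 39 members, 8 averaged 10 CPM or more (*H2-D1*, *Stat2*, *Irf9*, *B2m*, *Adar*, *Ifi27*, *H2-K1* and *Irf1*) and together held 84% of the members' CPM, 21 lay between 1 and 10 CPM, and 10 lay under 1 CPM. Per kilobase of exon and over all libraries, the highest level was that of *B2m* (46.2 CPM per kb), followed by *H2-D1* (30.1), *Ifi27* (13.6), *Stat2* (11.5) and *Irf9* (9.45 CPM per kb). The sensors ranged in CPM per kb from *Dhx58* (1.24) and *Ddx58* (0.599) through *Mb21d1* (0.459), *Tlr3* (0.322), *Eif2ak2* (0.272) and *Ifih1* (0.146) to *Zbp1* (0.0523). In sorted bulk nuclei, a few nuclei with much of a transcript and many with little cannot be told apart. The summed level of all members was 365 ± 34.2 CPM in controls (SD, n = 5), 417 ± 55.6 CPM in *Mphosph8* knockouts (n = 3) and 352 ± 32.5 CPM in *Morc2a* knockouts (n = 2).

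Precision followed these levels. In the *Mphosph8* comparison 32 tested members had a 95% interval; 7 of these lay wholly within a 2-fold change either way, 10 had an upper bound under 2-fold, and 14 had an upper bound over 4-fold. In the *Morc2a* comparison 4 members lay wholly within a 2-fold change, 13 had an upper bound under 2-fold and 10 had an upper bound over 4-fold. Of the 8 abundant members, 7 lay within 2-fold in the *Mphosph8* knockout (median log2 fold change 0.17, range -0.24 to 0.61). In the *Morc2a* knockout 4 lay within 2-fold and all 8 had an upper bound under 2-fold (median -0.27, range -0.55 to 0.39).

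**Figure D2:**
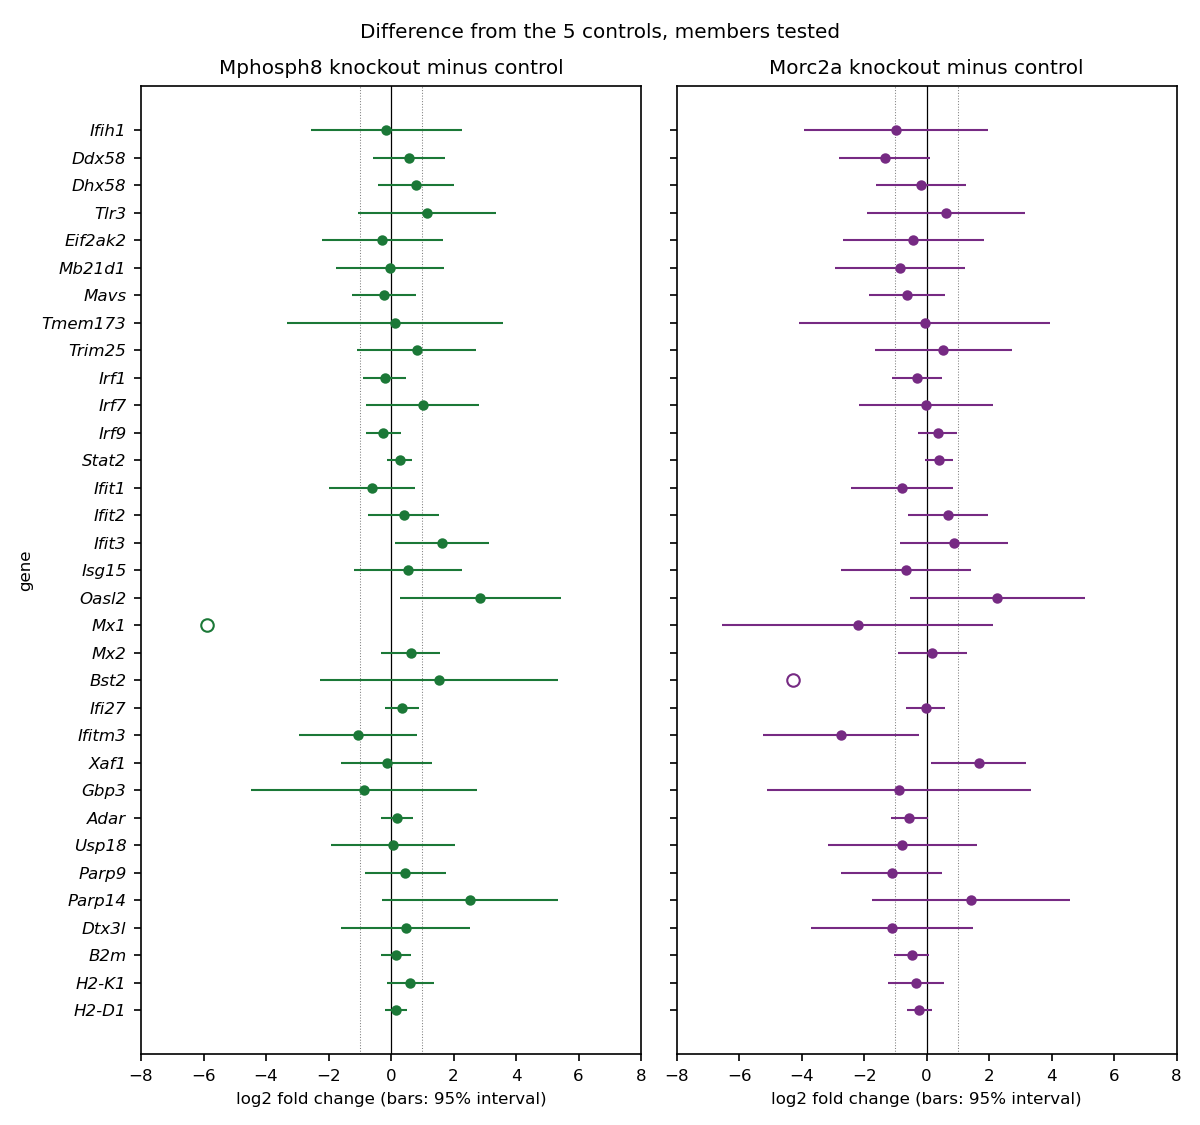
Log2 fold change of the 33 tested members in each knockout against the 5 controls, with 95% intervals derived from edgeR's fold change and F statistic. Open circles without an interval mark members with no count in the knockout group. Abundant members have short intervals around 0, and scarce members such as *Mx1*, *Bst2* and *Parp14* have wide or no intervals.

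Sensors of RNA and DNA summed to 14 ± 3.33 CPM in controls (SD, n = 5), 19.2 ± 1.4 CPM in *Mphosph8* knockouts (n = 3) and 9.32 ± 0.348 CPM in *Morc2a* knockouts (n = 2). The 3 *Mphosph8* knockout libraries (18.2 to 20.8 CPM) lay above and the 2 *Morc2a* knockout libraries (9.08 to 9.57 CPM) below all controls (10.2 to 17.5 CPM). This sum was not tested and has no share over all genes to set beside it. Of the 6 tested sensors, 0 were without overlap in either knockout. A positive log2 fold change was seen for 3 of 6 in the *Mphosph8* knockout and for 1 of 6 in the *Morc2a* knockout. *Ddx58* (RIG-I, chr4:40203773-40239828, minus strand), which binds short double-stranded RNA with a free end, was counted 17, 22, 46, 87 and 23 times in controls, 47, 68 and 68 times in *Mphosph8* knockouts and 7 and 24 times in *Morc2a* knockouts. Control 4 was the highest of all, and both knockout groups overlapped the controls (log2 fold change 0.57, adjusted p = 0.99, and -1.35, adjusted p = 0.51, by edgeR). The *Morc2a* value was -2.46 without *Morc2a* knockout 2 and -0.74 without *Morc2a* knockout 1. *Dhx58* (LGP2), which modulates RIG-I and MDA5, had 34, 66, 36, 7 and 14 counts in controls, 62, 80 and 35 in *Mphosph8* knockouts and 21 and 36 in *Morc2a* knockouts. Its 2 lowest libraries were the controls of the *Morc2a* line (log2 fold change 0.81, adjusted p = 0.97, and -0.18, adjusted p = 0.96). The other tested sensors, *Ifih1* (MDA5, for long double-stranded RNA), *Tlr3* (endosomal double-stranded RNA), *Eif2ak2* (PKR, which halts translation) and *Mb21d1* (cGAS), had log2 fold changes from -0.27 to 1.15 in the *Mphosph8* knockout and from -0.98 to 0.61 in the *Morc2a* knockout. *Zbp1*, a sensor of left-handed nucleic acid that can start necroptosis, had 1, 0, 2, 2 and 9 counts in controls and none in either knockout group, and was too scarce to test. With the knockouts set to 3 counts per group its level was at least 3.03-fold lower in the *Mphosph8* and at least 1.95-fold lower in the *Morc2a* knockout, but these bounds rested on control 5, without which they were 1.27 and 0.815.

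Adaptors and transcription factors did not pass the test. *Mavs*, on which RIG-I and MDA5 converge, had 20, 106, 106, 50 and 37 counts in controls, 72, 53 and 44 in *Mphosph8* knockouts and 58 and 23 in *Morc2a* knockouts, with *Morc2a* knockout 2 (2.37 CPM) just under the lowest control (2.5 CPM) and the rest within the control range (log2 fold change -0.22 and -0.64). *Tmem173* (STING), which acts after cGAS, had 7, 0, 19, 0 and 19 counts in controls, 34, 0 and 0 in *Mphosph8* knockouts and 0 and 20 in *Morc2a* knockouts. Each group held both libraries without a count and libraries with one, and the fold changes were not resolved (log2 0.11, SE 1.64, and -0.06, SE 1.90). *Trim25*, a ubiquitin ligase that activates RIG-I, had log2 fold changes of 0.82 (SE 0.91) and 0.53 (SE 1.04). *Stat2* (chr10:128270559-128292849, plus strand), a core member of the factor that type I interferon activates, stood at 70.5, 47.9, 61.3, 66.1 and 55.9 CPM in controls, 74.7, 94.9 and 49.6 CPM in *Mphosph8* knockouts and 84.2 and 73.4 CPM in *Morc2a* knockouts. Both *Morc2a* knockout libraries lay above all controls (log2 fold change 0.39, interval -0.07 to 0.84, adjusted p = 0.55), while the *Mphosph8* knockouts spread on both sides (0.28, interval -0.12 to 0.68, adjusted p = 0.97). *Irf9* (chr14:55603571-55610030, plus strand), the DNA-binding partner of STAT2, stood at 64.5, 45.3, 60.3, 43.8 and 38.1 CPM in controls, 48.8, 56.9 and 22.2 CPM in *Mphosph8* knockouts and 49.3 and 79.8 CPM in *Morc2a* knockouts. One library of each knockout, replicate 3 for *Mphosph8* and replicate 2 for *Morc2a*, lay outside the control range, in opposite directions. *Irf1*, which responds mainly to type II interferon, and *Irf7*, which amplifies the type I response, had log2 fold changes of -0.21 and 1.01 in the *Mphosph8* knockout and -0.31 and -0.02 in the *Morc2a* knockout.

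**Figure D3:**
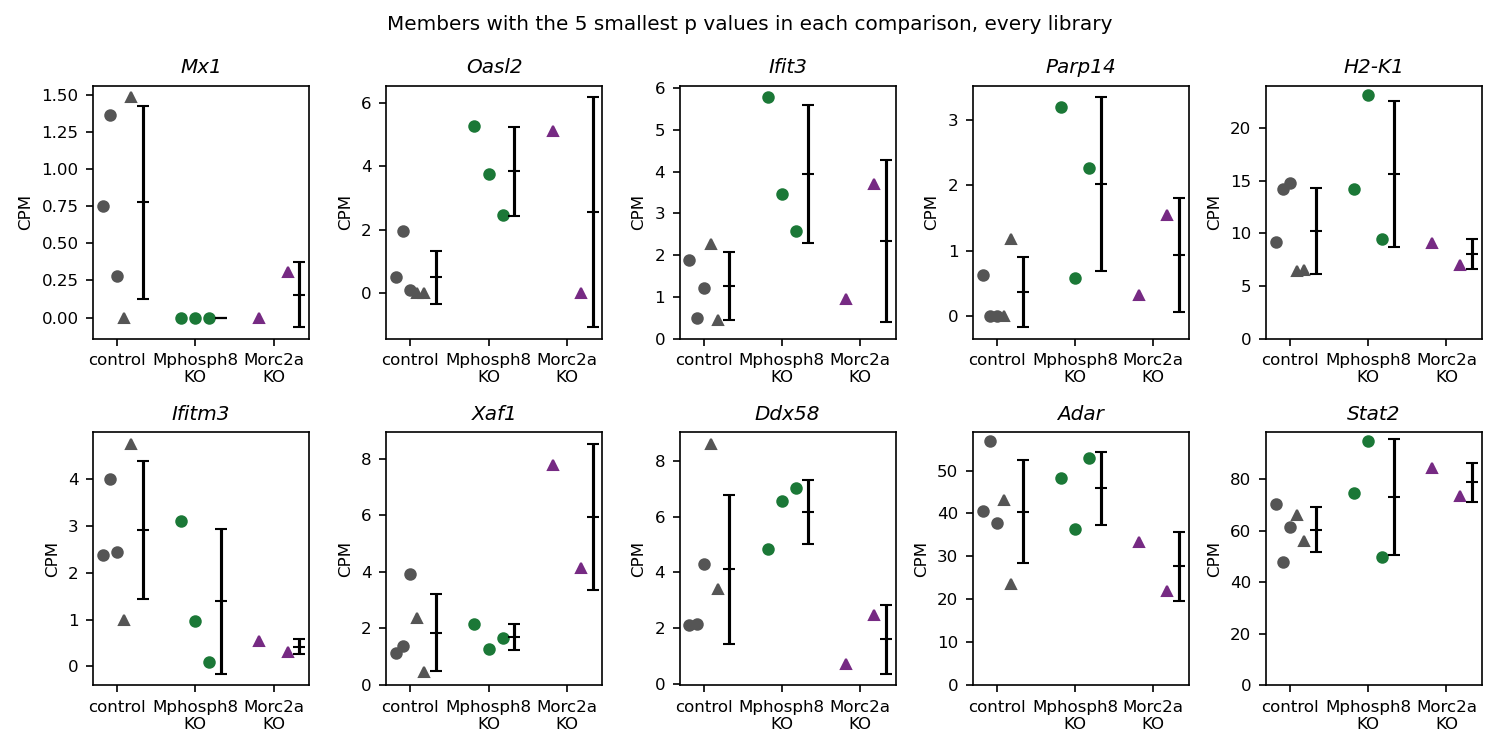
CPM of 10 members in each library by group, with mean ± SD; circles are libraries of the *Mphosph8* line and triangles those of the *Morc2a* line. *Ifit3* and *Oasl2* were higher in the 3 *Mphosph8* knockout libraries than in all controls, and *Ifitm3* was lower in both *Morc2a* knockout libraries than in all controls.

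Among the 12 tested effectors the median log2 fold change was 0.37 in the *Mphosph8* knockout and -0.34 in the *Morc2a* knockout, and genes whose groups did not overlap lay on either side of the controls. *Ifit3* (chr19:34583531-34588731, plus strand), an antiviral protein that works with IFIT1 on foreign RNA, had 15, 5, 13, 23 and 3 counts in controls, 56, 36 and 25 in *Mphosph8* knockouts and 9 and 36 in *Morc2a* knockouts. All *Mphosph8* knockouts lay above the controls (3.95 ± 1.65 CPM, SD, n = 3, against 1.26 ± 0.817 CPM, n = 5; log2 fold change 1.63, SE 0.72, interval 0.12 to 3.14, adjusted p = 0.86 by edgeR), and of the *Morc2a* knockouts replicate 2 did (log2 fold change 0.88, adjusted p = 0.77; -0.40 without that library). *Oasl2* (chr5:114896936-114912234, plus strand), of the 2'-5' oligoadenylate synthetase family, had 4, 20, 1, 0 and 0 counts in controls, 51, 39 and 24 in *Mphosph8* knockouts and 48 and 0 in *Morc2a* knockouts. The *Mphosph8* knockouts again lay above all controls (log2 fold change 2.85, SE 1.22, interval 0.28 to 5.42, adjusted p = 0.84; 4.61 without control 2), and the *Morc2a* knockouts were split between a high library and one with no count (log2 fold change 2.27, adjusted p = 0.58). Reads of the *Ifit* and *Oas* families can be shared between near copies, so their single values are uncertain.

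*Mx1* (chr16:97447035-97462907, minus strand), of an antiviral GTPase family, had no count in the 3 *Mphosph8* knockouts but did not pass the test (adjusted p = 0.81 by edgeR). It had 6, 14, 3, 0 and 10 counts in controls. With the knockouts set to 3 counts over the group, the level was at least 7.13-fold lower, and at least 5.29-fold lower without control 2. This bound allows for counting error in the knockouts only. Control 4 was at 0 as well, and the *Morc2a* knockouts had 0 and 3 counts. *Ifitm3* (chr7:141009586-141010770, minus strand), which blocks viral entry at membranes, had 19, 41, 26, 10 and 32 counts in controls, 30, 10 and 1 in *Mphosph8* knockouts and 5 and 3 in *Morc2a* knockouts. Both *Morc2a* knockouts lay below all controls (0.421 ± 0.157 CPM, SD, n = 2, against 2.91 ± 1.48 CPM, n = 5; log2 fold change -2.75, SE 1.19, interval -5.25 to -0.25, adjusted p = 0.41). *Ifitm3* is also abundant in endothelial cells, whose 10 summed markers lay at 22.1 to 27.3 CPM in the *Morc2a* knockouts and 30.5 to 47.4 CPM in controls (exact permutation p = 0.0952). The lower sum lay mostly in *Itm2a* (mean 5.24 CPM against 16.4 CPM in controls). *Esam* (14.5 against 12.8 CPM) and *Flt1* (0.883 against 0.377 CPM) were higher, and 7 markers had no count in at least 1 library. The part of endothelial cells in the *Ifitm3* result was not tested. *Xaf1* (chr11:72301629-72313733, plus strand), an interferon-induced antagonist of an inhibitor of apoptosis, had 9, 14, 42, 24 and 3 counts in controls, 21, 13 and 16 in *Mphosph8* knockouts and 73 and 40 in *Morc2a* knockouts. In CPM both *Morc2a* knockouts were above all controls (5.94 ± 2.57 CPM, n = 2, against 1.85 ± 1.35 CPM, n = 5; log2 fold change 1.66, SE 0.72, adjusted p = 0.41), while the *Mphosph8* value was -0.14.

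The remaining effectors had wide errors. *Isg15*, a ubiquitin-like modifier and a widely used marker of the interferon response, had 14, 16, 28, 8 and 16 counts in controls, 26, 4 and 47 in *Mphosph8* knockouts and 4 and 18 in *Morc2a* knockouts. The *Mphosph8* knockouts held both the highest library and the lowest in CPM (log2 fold change 0.54, SE 0.81, and -0.66, SE 0.99). *Ifit1*, which binds RNA lacking a methylated cap, lay below all controls in CPM in both *Morc2a* knockouts (log2 fold change -0.79, SE 0.77, adjusted p = 0.78), and *Ifit2* had 50 and 66 counts there against 8 to 77 in controls. *Mx2* had log2 fold changes of 0.64 (SE 0.45) and 0.19 (SE 0.52), and its annotation is that of a polymorphic pseudogene. *Ifi27*, a mitochondrial and nuclear envelope protein, stood at 18.4, 22.3, 16.7, 17.9 and 17.7 CPM in controls, 16, 33.3 and 21.3 CPM in *Mphosph8* knockouts and 22.1 and 14.4 CPM in *Morc2a* knockouts. *Mphosph8* knockout 2 was the highest library, and groups overlapped in both comparisons (log2 fold change 0.34, interval -0.20 to 0.88, and -0.03, interval -0.65 to 0.60). *Gbp3*, a guanylate-binding protein, had no count in 5 libraries, and *Bst2* (tetherin), which holds virions at the cell surface, had counts only in control 2 (12) and in *Mphosph8* knockouts 1 and 3 (1 and 20). *Oas1a*, *Rsad2* (viperin), *Ifi44* and *Gbp2* were too scarce to test, with at most 18 counts in any library. *Gbp2* had 6, 18, 9, 0 and 0 counts in controls, none in the *Mphosph8* knockouts (at least 7.13-fold lower by the bound above, and at least 4.18-fold without control 2) and 4 and 0 in the *Morc2a* knockouts.

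The brakes and ADP-ribosylation factors summed to 47.6 ± 10.3 CPM in controls (SD, n = 5), 56.7 ± 8.87 CPM in *Mphosph8* knockouts (n = 3) and 31.9 ± 4.39 CPM in *Morc2a* knockouts (n = 2). All 5 had a positive log2 fold change in the *Mphosph8* knockout (median 0.45) and 1 of 5 in the *Morc2a* knockout (median -0.78), with none past the test. *Adar* (chr3:89715022-89753446, plus strand), which edits adenosine in double-stranded RNA and so keeps self RNA from MDA5, stood at 40.7, 57, 37.8, 43.2 and 23.6 CPM in controls, 48.3, 36.5 and 52.9 CPM in *Mphosph8* knockouts and 33.4 and 22 CPM in *Morc2a* knockouts. *Morc2a* knockout 2 was the lowest library and control 5 the next (log2 fold change 0.18, interval -0.33 to 0.69, adjusted p = 1, and -0.55, interval -1.16 to 0.06, adjusted p = 0.52). *Adar* shares 16.8% of its exonic bases with *Chrnb2* on the opposite strand, and the strand setting of the counting was not given in the sources used here. *Parp14*, a macrodomain ADP-ribosyltransferase, had 5, 0, 0, 0 and 8 counts in controls, 31, 6 and 22 in *Mphosph8* knockouts and 3 and 15 in *Morc2a* knockouts, overlapping the controls in both (log2 fold change 2.52, adjusted p = 0.91, and 1.42, adjusted p = 0.81). *Parp9* and its partner ubiquitin ligase *Dtx3l*, which share 9.4% and 8% of their exonic bases with each other on opposite strands, had log2 fold changes of 0.45 and 0.47 in the *Mphosph8* knockout and -1.12 each in the *Morc2a* knockout. *Parp9* was counted 30, 13, 47, 20 and 19 times in controls, 25, 47 and 44 times in *Mphosph8* knockouts and 5 and 20 times in *Morc2a* knockouts, where replicate 1 was the lowest of all libraries. *Usp18*, which removes ISG15 and dampens the interferon receptor, had 8 to 23 counts in controls, 40, 4 and 3 in *Mphosph8* knockouts and 5 and 12 in *Morc2a* knockouts.

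Antigen presentation genes were among the best measured members, and those tested had intervals whose upper bound was under 2-fold except for *H2-K1* in the *Mphosph8* knockout. *B2m* (chr2:122147686-122153083, plus strand), the light chain of class I molecules, stood at 38.8, 43.5, 45.6, 41.4 and 33.4 CPM in controls, 39.6, 45.8 and 51.2 CPM in *Mphosph8* knockouts and 40.8 and 17.4 CPM in *Morc2a* knockouts. *Morc2a* knockout 2 was the lowest library and *Mphosph8* knockout 3 the highest, both outside the control range (log2 fold change 0.17, interval -0.31 to 0.64, and -0.48, interval -1.05 to 0.09, adjusted p = 0.56), and without it the *Morc2a* value was 0.0028. *H2-D1* (chr17:35262730-35267499, plus strand), a class I heavy chain, stood at 58.6, 93.3, 74, 85 and 74.6 CPM in controls, 77.8, 100.9 and 80.8 CPM in *Mphosph8* knockouts and 71.8 and 59.8 CPM in *Morc2a* knockouts, with overlap in both comparisons (log2 fold change 0.17, interval -0.18 to 0.51, and -0.23, interval -0.63 to 0.17). *H2-K1* (chr17:33996017-34000347, minus strand), the other classical heavy chain, stood at 9.14, 14.2, 14.8, 6.42 and 6.53 CPM in controls, 14.3, 23.2 and 9.51 CPM in *Mphosph8* knockouts and 9.04 and 7.01 CPM in *Morc2a* knockouts. Its 2 lowest libraries were the controls of the *Morc2a* line, and its log2 fold changes of 0.61 (interval -0.14 to 1.36, adjusted p = 0.93) and -0.35 (adjusted p = 0.83) became 0.30 and 0.31 when only its own line's controls were used. The 2 heavy chains are near copies, so reads between them are uncertain. *Cxcl10*, a chemokine for T cells, had 35 counts in *Mphosph8* knockout 1, 4 and 3 in controls 1 and 4, and none in the other 7 libraries.

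Controls of the 2 floxed lines differed in these genes by a median at least as large as that of either knockout. Between the 2 *Morc2a* line and the 3 *Mphosph8* line controls, 25 of 33 members were lower in the *Morc2a* line, against 50.3% of all genes, with a median log2 difference of -0.40 (all genes -0.00). At an unadjusted p under 0.05, 4 members passed, all lower in the *Morc2a* line (*Ifit2*, *Dhx58*, *Oasl2* and *H2-K1*), against 9.21% of all genes. None had an adjusted p under 0.05 by edgeR, which 0.172% of all genes had. *Ifit2*, an RNA-binding antiviral protein, stood at 5.01, 7.5 and 3.46 CPM in the *Mphosph8* line controls and 1.58 and 1.19 CPM in the *Morc2a* line controls (log2 difference -1.92, adjusted p = 0.30). The *Mphosph8* line controls lay above the *Morc2a* line controls without overlap. For such non-overlap of 3 against 2 libraries, no share over all genes was computed to set beside it.

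Within lines, no member passed the test (adjusted p under 0.05 and a fold change above 2), which 0.0538% of all genes did in each line. The unadjusted p was under 0.05 for 1 member in the *Mphosph8* line, against 5.54% of all genes. All 5 controls together had given 3, so at most 1 of *Oasl2*, *Ifit3* and *Mx1* still passed. In the *Morc2a* line 3 members passed, against 9.08% of all genes. There, *Ifit2* was at 5.32 and 6.81 CPM in the knockouts, above both controls of the line and within the range of the *Mphosph8* line controls (log2 fold change 2.11, adjusted p = 0.32). *Ddx58* was lower than in the line's controls (-1.90, adjusted p = 0.48), and *Oasl2* had 48 and 0 counts against none in those controls. The test of the difference between the knockout effects, each within its line, passed 0 members and 0% of all genes at an adjusted p under 0.05. At an unadjusted p under 0.05 it passed *Ddx58* (*Mphosph8* minus *Morc2a* effect 2.99, adjusted p = 0.44), *Ifit2* (-2.20, adjusted p = 0.51) and *Irf9* (-1.07, adjusted p = 0.57), 3 of 33 against 7.95% of all genes.

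**Figure D4:**
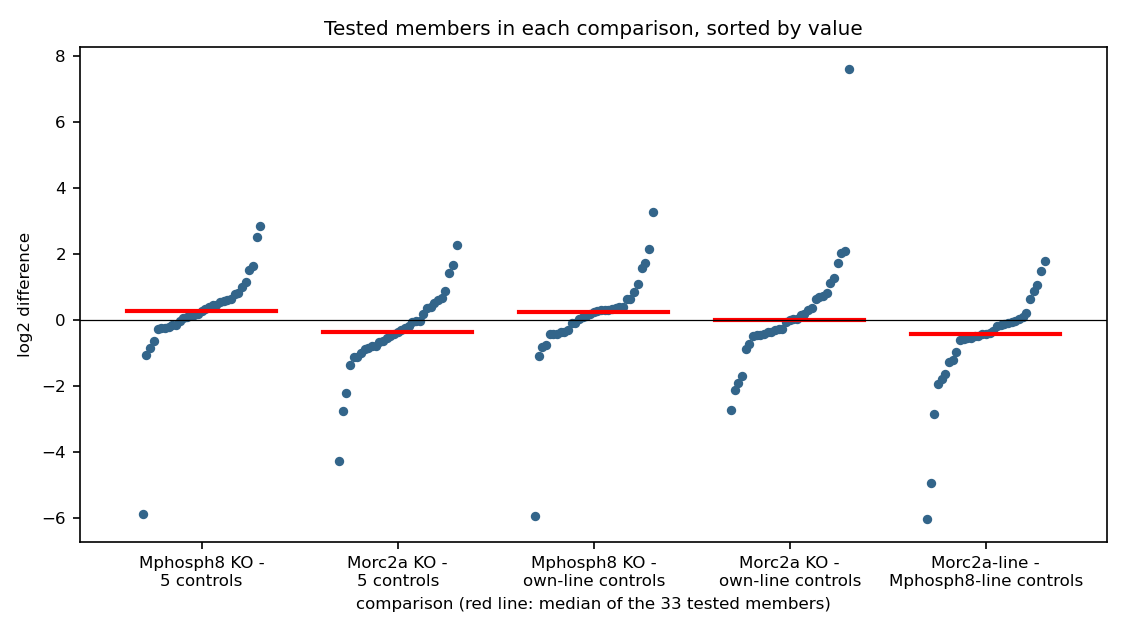
Log2 differences of the 33 tested members, sorted within each of 5 comparisons, with the median as a red line. The medians were 0.28 and -0.35 for the knockouts against all controls and -0.40 for the *Morc2a* line against the *Mphosph8* line controls.

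Members with and without the response element core gave no common picture. For the 11 tested members with the core, log2 fold changes had a median of 0.17 in the *Mphosph8* knockout (6 positive) and of -0.79 in the *Morc2a* knockout (2 positive). The 14 without it had medians of 0.29 (9 positive) and -0.12 (6 positive). Of the 6 tested members with more than 1 copy, *Ifit3* (1.63), *Bst2* (1.53) and *Isg15* (0.54) had positive and *Ifit1* (-0.62), *Gbp3* (-0.86) and *Ifitm3* (-1.05) negative log2 fold changes in the *Mphosph8* knockout.

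The wider pathway was read in 97 further genes of interferon, its receptors, signalling, sensing and induced effectors, of which 68 were abundant enough to test. None was called in either knockout. At an unadjusted p under 0.05, 3 passed in the *Mphosph8* knockout (2 higher, 1 lower), against the 5.67% of all genes, and 4 in the *Morc2a* knockout (2 higher, 2 lower), against 10.7%, and the medians were -0.02 in each, with 32 and 31 of 68 positive. Of the 10 interferon genes listed, 8 (*Ifnb1*, *Ifna1*, *Ifna5*, *Ifne*, *Ifnk*, *Ifng*, *Ifnl2* and *Ifnl3*) had no count in any library, *Ifna2* had 5 counts in control 3 and *Ifna4* had 3 in *Morc2a* knockout 1. Transcripts of the machinery that senses interferon were present in the sorted nuclei: *Ifnar1*, a chain of the type I receptor, had 386 to 945 counts per library (12.2 CPM per kb), and the kinases *Jak1* and *Tyk2* stood at 19.7 and 10.2 CPM per kb. Of the 9 tested receptor and kinase genes, 7 had an interval within a 2-fold change in each knockout. *Psmb8*, a subunit of the immunoproteasome, had 2, 0, 3, 10 and 4 counts in controls, 37, 17 and 23 in *Mphosph8* knockouts and 35 and 2 in *Morc2a* knockouts (log2 fold change in the *Mphosph8* knockout 2.6, adjusted p = 0.81). The *Mphosph8* knockouts lay above all controls, and the *Morc2a* knockouts were split. *Oasl1*, a further synthetase-like gene, had 13, 18 and 0 counts in *Mphosph8* knockouts and at most 2 in a control (3.72, adjusted p = 0.86), and the kinase *Jak2* was lower there (-0.39, adjusted p = 0.88). *Igtp*, an interferon-induced GTPase, had 28, 14, 54, 8 and 27 counts in controls and 1 and 8 in *Morc2a* knockouts (-2.61, adjusted p = 0.37), while *Mphosph8* knockout 3 had 150. The *Morc2a* knockouts overlapped control 4, which was the lowest control. *Oas1b*, annotated as a polymorphic pseudogene, had 58 and 0 counts in *Morc2a* knockouts and 0 to 5 in controls (3.51, adjusted p = 0.39). *Zc3hav1*, which targets viral RNA rich in CpG for decay, had 11 and 12 counts there against 19 to 62 in controls and lay below all of them (-1.52, adjusted p = 0.44).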

How the data were processed

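The deposited files hold whole-number read counts per gene, 1 file per library, for 54532 genes. Per the labels and the study's methods, the authors enriched poly(A) RNA of sorted nuclei, sequenced short single reads, trimmed them (Trim Galore 0.5.0), removed abundant sequences (Bowtie2 2.3.4.1), aligned to GRCm38 with STAR and counted with featureCounts (Subread 1.6.2). Strand setting and treatment of reads shared by genes were not given in the sources used here, and 14 members share exonic bases with another gene. Counts were tested with edgeR 4.0.16 (R 4.3.3; TMM scaling, filterByExpr, quasi-likelihood) in a fit of the 3 groups, with Benjamini-Hochberg adjustment over 18573 genes. A fit of 4 groups gave within-line effects, their difference and the difference between control lines. A call needed an adjusted p under 0.05 and a fold change above 2. The common biological coefficient of variation was 0.375. CPM uses TMM library sizes. DESeq2 1.42.0 and limma-voom (limma 3.58.1) were alternatives, beside other filters, scalings, a replicate block and leaving out each library. Values in every library were given for the 5 members with the smallest p in each comparison and the 2 with the highest CPM per kb in each role, and 3 further pathway genes with the smallest p per comparison were named; single values of *Ifit1*, *Ifit2*, *Isg15*, *Bst2*, *Gbp2*, *Zbp1*, *Usp18* and *Cxcl10* were added after they were seen. Members and lists were chosen with earlier results of these data known. Groups share replicate numbers in the labels; deviations of same-numbered libraries from their group means correlated at -0.03 to 0.04 and were not treated as pairs.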

Additional observations from a re-analysis of the deposited data

Results flagged for a closer look

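In 2 of 41 values examined, 1 of the 5 control libraries lay far from the other 4 by Dixon's criterion. Chance meets this criterion in about 1 of 20 groups of normally distributed values, and 2 of 41 is near that rate. Both values are of scarce genes, for which the rate need not hold. A gene with counts in 1 control only, such as *Bst2*, always meets it. *Oasl2* stood at 1.95 CPM in control 2 (20 counts) and at 0 to 0.501 CPM in the other controls. *Bst2* stood at 1.17 CPM in control 2 (12 counts), with no count in the other 4.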

How the results depend on the processing

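0 members were called in every setting tried. Over all genes, the *Mphosph8* count of 18 calls became 87 with every gene with a count tested, 10 against controls of its line, 43 with DESeq2, and 6 (without *Mphosph8* knockout 2) to 21 leaving out each library, with 7 to 9 without *Mphosph8* knockout 1 or 3 or control 1. The *Morc2a* count of 11 became 98 with every gene with a count tested, 24 with at least 10 counts in every library, 27 with DESeq2, 46 with a replicate block, and 3 (without *Morc2a* knockout 2) to 26 (without control 5) leaving out each library, beyond 1.5 times for 9 of 10 libraries. The block called 0 members in either knockout. Controls 4 and 5 have replicate numbers of their own, so the block fit compared the *Morc2a* knockouts with *Mphosph8* line controls only. Its *Morc2a* values, here and below, mix the line difference with the knockout. A within-line fit with the block, chosen after seeing the data, is the same model for the *Mphosph8* knockout and is no separate check. It called 12 genes and 0 members (0 at an unadjusted p under 0.05, against 5.19% of all genes, and a median of 0.11). The *Morc2a* line effect, the difference between the effects and that between control lines could not be fitted with a block, since numbers 4 and 5 occur only in the *Morc2a* line controls, and were not run. The member median was 0.21 to 0.41 (*Mphosph8*) and -0.54 to -0.18 (*Morc2a*) leaving out each library, and the *Morc2a* median was 0 within its line. Leaving out a library moved 13 of 36 fold changes of named members by over 1.5 times. Of 588 values of named members, 27 changed sign and 0 were called. Those of the *Mphosph8* knockout were *Xaf1* (0.023 by voom, -0.37 to 0.33 leaving out each library), *Tmem173* (-0.86 by voom, -0.057 with the block, -6.37 to 0.82) and *Irf9* (-0.50 to 0.071). Those of the *Morc2a* knockout were *Oasl2* (-5.34 to 4.02), *Ifit3* (-0.40 to 1.54), *Parp14* (-0.11 to 2.59), *H2-K1* (0.31 within its line), *Dhx58* (1.13 within its line, 0.11 by voom, -0.60 to 0.20), *Tmem173* (2.78 with the block, -6.37 to 0.93), *Irf9* (-0.031 with the block, -0.037 to 0.66), *Ifi27* (0.041 within its line, -0.37 to 0.24) and *B2m* (-1.22 to 0.0028). Signs changed without *Morc2a* knockout 2 for *Ifit3*, *Parp14*, *Irf9*, *Ifi27* and *B2m*, and without knockout 1 for *Oasl2*, *Dhx58* and *Tmem173*. Values beyond -5 were fitted to knockouts with no count and are no bounds. The difference in summed neuronal markers in the *Mphosph8* knockout was 0.011 with plain CPM. The cause of these shifts was not tested. Intervals reached beyond a 4-fold increase for 14 members in the *Mphosph8* and 10 in the *Morc2a* comparison, so that changes of that size in these members are not excluded by the data.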
